A study of Homo sapiens with 11 samples.

Results

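The collagen genes examined here are the protein-coding genes named COL, a type number, A and a chain number, and 44 of the 58721 genes in the table matched that pattern with GENCODE 29 symbols, covering all 28 collagen types. They were followed through drug treatment and drug withdrawal in A375, an established melanoma cell line with a BRAF mutation, whose genotype the labels give as wild type. The drug was trametinib, an inhibitor of the MEK kinases downstream of BRAF. Poly(A) RNA was read in 11 libraries: 5 of withdrawn cells, 5 of persister cells and 1 of untreated parental cells. Persister cells had grown in 2 nM trametinib for 8 weeks. Withdrawn cells had the same treatment and were sampled 4 weeks after the drug was taken away. All 3 groups were cultured in DMEM. Each withdrawn culture carries the name of 1 persister culture. Nothing in the labels tells whether the numbered cultures arose independently, and the p-values therefore cover only the spread between these libraries, which may be technical. The single parental library has no replicate and was taken to vary as the others do.

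Collagens are secreted as trimers of chains wound into a triple helix, and each chain has its own gene. Fibrillar collagens form the cables of skin, bone, tendon and cartilage, type IV forms the sheet of basement membranes, type VI forms beaded filaments, and the FACIT collagens (fibril-associated collagens with interrupted triple helices) sit on fibrils made by others. In skin most fibrillar collagen comes from dermal fibroblasts, and melanocytes rest on a type IV sheet.

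Total counts ran from 56513920 to 82984566 per library. DUSP6 and SPRY4, which ERK signalling induces, were 6.76-fold and 25.9-fold lower in persister than in parental cells (adjusted p = 1.31e-06 and 1.55e-05). Markers of the melanocytic lineage summed to 1058 to 1166 CPM in withdrawn, 394 to 1000.4 CPM in persister and 801 CPM in parental libraries. SOX10, S100B and S100A1 were lower and MLANA, DCT and PMEL higher in persister than in parental cells, and MITF did not pass the test. TYR, the enzyme that starts pigment synthesis, was at or near 0 in every library. Leukocyte markers summed to at most 1.50 CPM and endothelial markers to at most 27.3 CPM in any library, and keratinocyte markers to 35.1 to 39.2 CPM in withdrawn, 47.8 to 59.7 CPM in persister and 40.3 CPM in parental libraries. CPM are counts scaled to the size of each library with TMM factors, adjusted p-values come from edgeR's quasi-likelihood test over all 23693 genes tested, and a gene is said to be higher or lower, to rise or to fall, where its adjusted p is under 0.05.

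Of the 44 collagen genes, 39 had enough counts to be tested. Between persister and parental cells 11 rose, or 28.2% of the 39, against 16.1% of all genes tested, and 10 fell, or 25.6% against 15.1% of all genes. Between withdrawn and persister cells 13 rose, or 33.3% against 24.5% of all genes, and 14 fell, or 35.9% against 28.0% of all genes. Both comparisons use the same persister libraries, and both medians were near those of all genes: the median log2 fold change of the 39 was 0.09 in persister against parental cells, with 0.09 over all genes, and -0.11 in withdrawn against persister cells, with -0.03 over all genes. Fitted to the 6 persister and parental libraries alone, 7 collagen genes rose and 8 fell, where 5.94% of all genes rose and 5.33% fell. In bulk RNA, fewer cells that make a collagen and less of its RNA per cell cannot be told apart.

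**Figure D1:**
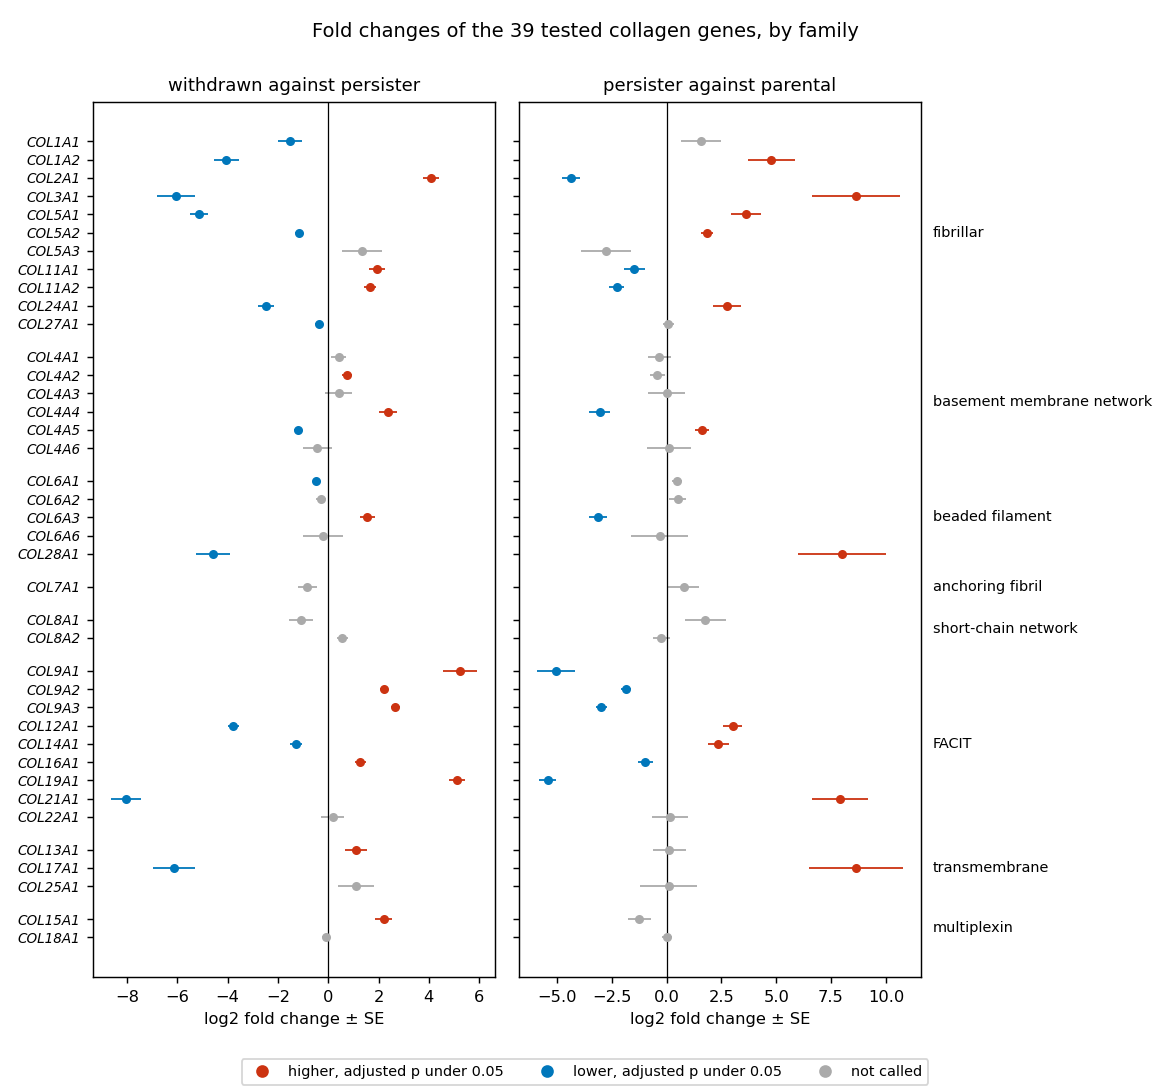
Log2 fold changes (x axis, error bars are approximate SE derived from the test) of the 39 tested collagen genes, grouped by family, in withdrawn against persister cells (left) and persister against parental cells (right). Red points are higher and blue points lower at an adjusted p under 0.05. The x axes differ between panels. COL21A1 stands at -8.04 on the left and 7.91 on the right, and COL19A1 at 5.13 and -5.42.

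The fibrillar collagens split by chain. Among 11 fibrillar genes, 5 (45.5%) rose and 3 (27.3%) fell in persister against parental cells, where 16.1% of all genes tested rose and 15.1% fell. In withdrawn against persister cells 3 (27.3%) rose and 7 (63.6%) fell, where 24.5% rose and 28.0% of all genes fell. COL1A2, COL3A1, COL5A1, COL5A2 and COL24A1 rose in persister against parental cells, and COL2A1, COL11A1 and COL11A2, chains of cartilage fibrils, fell.

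Type V collagen copolymerises with type I and helps to start its fibrils, and its genes COL5A1 and COL5A2 had the highest CPM of the fibrillar genes in persister cells. COL5A1 (chromosome 9, 134641774 to 134844843, GRCh38) had 12.3, 12.3, 13.3, 5.70 and 14.4 CPM in the withdrawn libraries, 213, 362, 567, 566 and 326 CPM in the persister libraries and 32.7 CPM in the parental library. Each persister library was above the parental library and every withdrawn library, and each withdrawn library was below the parental one. COL5A1 was 12.4-fold higher in persister than in parental cells (log2 fold change 3.64 ± 0.68 (SE), adjusted p = 0.00257) and 35.1-fold lower in withdrawn than in persister cells (log2 fold change -5.13 ± 0.35 (SE), adjusted p = 1.04e-06). COL5A2 (chromosome 2, 189031896 to 189225312) had 248, 202, 278, 243 and 273 CPM in the withdrawn libraries, 492, 710.3, 431, 602 and 560.1 CPM in the persister libraries and 157 CPM in the parental library. Its persister values also stood above both other groups, but here every withdrawn library was above the parental one. COL5A2 was 3.57-fold higher in persister than in parental cells (log2 fold change 1.83 ± 0.27 (SE), adjusted p = 0.000579) and 2.25-fold lower in withdrawn than in persister cells (log2 fold change -1.17 ± 0.14 (SE), adjusted p = 3.10e-05).

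COL5A3, the remaining type V gene, ran from 2.87 to 3.94 CPM in withdrawn libraries and from 0.0956 to 4.49 CPM in persister libraries, against 9.18 CPM in the parental library. Its log2 fold change in persister against parental cells was -2.76 ± 1.14 (SE, adjusted p = 0.0883), and without persister library 1 it was -4.02 (adjusted p = 0.00536). The adjusted p was also under the threshold in 3 other alternatives, down to 0.000555. In withdrawn against persister cells the log2 fold change was 1.36 ± 0.80 (SE, adjusted p = 0.175), and 2.62 (adjusted p = 0.00654) without persister library 1. COL5A3 shares 4.0% of its exon bases with the antisense gene AC008742.1.

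Of the type I and III genes, COL1A2 and COL3A1 had at most 3 counts in the parental library. COL1A2, the second chain of type I collagen, had 0.0741, 0.0350, 0.119, 0.0712 and 0.0826 CPM in the withdrawn libraries, 1.51, 1.57, 2.36, 0.547 and 0.601 CPM in the persister libraries and 0.0459 CPM in the parental library. All persister libraries were above all others, and libraries 4 and 5 were the lowest of the 5. The parental value rests on 3 counts, against 427 counts over the persister libraries, a ratio of 27.3 with a 95% counting interval of 9.29 to 133 (adjusted p = 0.00670 in persister against parental cells). That call ended with limma-voom and with the 6 libraries alone, where the adjusted p reached 0.054. COL1A2 was 16.6-fold lower in withdrawn than in persister cells (log2 fold change -4.06 ± 0.49 (SE), adjusted p = 3.66e-05). COL1A1, the other type I chain, had 1.05, 1.49, 1.69, 0.784 and 1.75 CPM in the withdrawn libraries, 0.998, 1.62, 6.03, 6.11 and 4.56 CPM in the persister libraries and 1.30 CPM in the parental library. Persister libraries 3, 4 and 5 were above all other libraries, while persister libraries 1 and 2 lay within the withdrawn range. COL1A1 was 2.86-fold lower in withdrawn than in persister cells (log2 fold change -1.51 ± 0.47 (SE), adjusted p = 0.0192), with an adjusted p of 0.069 in limma-voom, and its log2 fold change of 1.57 ± 0.91 (SE) in persister against parental cells had an adjusted p of 0.208.

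COL3A1, the single chain of type III collagen, had 0.148, 0, 0.208, 0.114 and 0.0275 CPM in the withdrawn libraries, 2.27, 2.49, 12.1, 7.91 and 9.38 CPM in the persister libraries and 0.0153 CPM in the parental library. The persister libraries were far above both other groups, with libraries 1 and 2 the lowest of the 5. With 2414 counts over the persister libraries and 1 in the parental library the ratio was 464, with a counting interval of 83.1 to 18319.5 (adjusted p = 0.00791 in persister against parental cells, and 0.119 in limma-voom). COL3A1 was 66.6-fold lower in withdrawn than in persister cells (log2 fold change -6.06 ± 0.75 (SE), adjusted p = 5.84e-05). COL24A1, a fibrillar collagen known from developing bone, had 0.534, 0.718, 0.727, 0.684 and 0.991 CPM in the withdrawn libraries, 2.37, 4.17, 4.32, 2.58 and 7.20 CPM in the persister libraries and 0.612 CPM in the parental library. Its persister values did not overlap either other group. COL24A1 was 6.72-fold higher in persister than in parental cells (log2 fold change 2.75 ± 0.65 (SE), adjusted p = 0.00794, with an adjusted p of 0.06 in the 6 libraries alone) and 5.63-fold lower in withdrawn than in persister cells (adjusted p = 5.45e-05).

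Markers of fibroblasts other than collagens also differed where COL1A2, COL3A1, COL5A1 and COL5A2 rose. Their summed level was 38.7 to 52.7 CPM in withdrawn, 87.6 to 377 CPM in persister and 20.5 CPM in parental libraries. LUM alone averaged 4.08 CPM in withdrawn, 172 CPM in persister and 2.16 CPM in parental cells. Of the 8 tested, 5 (62.5%) rose and 1 (12.5%) fell in persister against parental cells, against 16.1% and 15.1% of all genes. LUM, DCN, FAP, THY1 and TWIST2 rose and PDGFRA fell. PDGFRB and PDPN did not pass the test, and DPT was at or near 0 in every library. THY1 averaged 0.525 CPM in persister cells. All 11 libraries are labelled as the same cell line, and the part of these markers in the collagen results was not tested.

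COL2A1, COL11A1 and COL11A2 moved the other way. COL2A1, the single chain of type II collagen, had 2.27, 1.14, 1.85, 1.68 and 1.33 CPM in the withdrawn libraries, 0.0614, 0.0738, 0.0609, 0.134 and 0.137 CPM in the persister libraries and 2.00 CPM in the parental library. The persister values lay below all others. COL2A1 was 20.7-fold lower in persister than in parental cells (log2 fold change -4.37 ± 0.41 (SE), adjusted p = 2.59e-05) and 17.1-fold higher in withdrawn than in persister cells (log2 fold change 4.10 ± 0.32 (SE), adjusted p = 1.56e-06).

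COL11A2, a chain of type XI collagen, which lies within type II fibrils, had 6.03, 6.16, 6.20, 4.94 and 6.30 CPM in the withdrawn libraries, 1.95, 1.03, 1.84, 1.42 and 3.09 CPM in the persister libraries and 9.09 CPM in the parental library. The 3 groups did not overlap, with the parental library highest and the persister libraries lowest. COL11A2 was 4.86-fold lower in persister than in parental cells (log2 fold change -2.28 ± 0.36 (SE), adjusted p = 0.000901) and 3.17-fold higher in withdrawn than in persister cells (log2 fold change 1.66 ± 0.25 (SE), adjusted p = 0.000182). COL11A1, its partner chain, had 1.19, 0.911, 1.51, 1.24 and 1.06 CPM in the withdrawn libraries, 0.476, 0.184, 0.259, 0.438 and 0.178 CPM in the persister libraries and 0.857 CPM in the parental library. Persister values were again the lowest. COL11A1 was 3.81-fold higher in withdrawn than in persister cells (log2 fold change 1.93 ± 0.31 (SE), adjusted p = 0.000318) and 2.77-fold lower in persister than in parental cells (adjusted p = 0.0381). The second of these calls ended without persister library 3, without withdrawn libraries 1, 4 or 5, without a low-count filter and in the 6 libraries alone, with adjusted p up to 0.161. COL27A1, a fibrillar collagen of cartilage, had 25.9, 26.4, 26.6, 29.1 and 30.1 CPM in the withdrawn libraries, 23.0, 40.9, 38.7, 41.6 and 35.9 CPM in the persister libraries and 34.0 CPM in the parental library. Persister library 1 was the lowest of all and the others lay above the withdrawn range. COL27A1 was 1.30-fold lower in withdrawn than in persister cells (log2 fold change -0.38 ± 0.14 (SE), adjusted p = 0.0408), a call that ended in 10 alternatives, among them the removal of any of persister libraries 2 to 5 or of any withdrawn library, with adjusted p up to 0.088.

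Type IV collagen genes lie in head-to-head pairs on opposite strands, and the RefSeq promoter windows of partners, each from 250 bases before to 50 after a start site, overlap. The windows of COL4A2, COL4A3 and COL4A5 (RefSeq, GRCh38.p14) are shown because paired genes share DNA here while their levels differed. Capitals mark the bases that also lie in the partner's window: 226 bases shared by COL4A2 and COL4A1 (chr13:110307034-110307333, plus strand), whose start sites are 127 bases apart, 82 bases shared by COL4A3 and COL4A4 (chr2:227164374-227164673, plus strand), and 121 bases shared by COL4A5 and COL4A6 (chrX:108439588-108439887, plus strand).
COL4A2: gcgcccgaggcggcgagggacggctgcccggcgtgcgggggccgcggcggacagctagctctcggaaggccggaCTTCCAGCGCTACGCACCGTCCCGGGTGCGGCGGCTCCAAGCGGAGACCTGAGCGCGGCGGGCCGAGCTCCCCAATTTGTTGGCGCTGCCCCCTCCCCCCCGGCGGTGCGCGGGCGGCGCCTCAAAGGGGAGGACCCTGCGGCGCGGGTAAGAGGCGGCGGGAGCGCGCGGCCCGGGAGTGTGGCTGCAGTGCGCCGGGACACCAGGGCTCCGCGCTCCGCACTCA
COL4A3: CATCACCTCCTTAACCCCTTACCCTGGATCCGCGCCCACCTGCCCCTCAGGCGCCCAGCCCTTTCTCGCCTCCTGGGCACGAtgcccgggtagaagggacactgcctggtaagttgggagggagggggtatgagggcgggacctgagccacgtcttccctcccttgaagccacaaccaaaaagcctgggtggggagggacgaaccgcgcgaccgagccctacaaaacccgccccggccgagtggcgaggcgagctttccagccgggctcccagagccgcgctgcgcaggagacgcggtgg
COL4A5: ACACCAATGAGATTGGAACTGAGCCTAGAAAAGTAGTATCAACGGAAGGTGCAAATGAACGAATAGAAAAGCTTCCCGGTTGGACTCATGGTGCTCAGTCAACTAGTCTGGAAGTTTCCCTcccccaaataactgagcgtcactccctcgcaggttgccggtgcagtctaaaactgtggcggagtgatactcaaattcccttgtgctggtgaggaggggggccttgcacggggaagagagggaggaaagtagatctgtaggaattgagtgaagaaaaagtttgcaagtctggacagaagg

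Among the 6 type IV genes, 1 (16.7%) rose and 1 (16.7%) fell in persister against parental cells, close to the 16.1% and 15.1% of all genes. In withdrawn against persister cells 2 (33.3%) rose and 1 (16.7%) fell, against 24.5% and 28.0% of all genes. COL4A1 and COL4A2, the common chains of basement membranes, had the highest counts of all collagen genes in parental and withdrawn cells. COL4A2 had 983, 875, 920.5, 1008 and 959.8 CPM in the withdrawn libraries, 442, 484, 837, 715 and 350.0 CPM in the persister libraries and 761 CPM in the parental library. All persister libraries were below the withdrawn range, with library 3 the closest to it, and the parental library lay within the persister range. COL4A2 was 1.68-fold higher in withdrawn than in persister cells (log2 fold change 0.75 ± 0.21 (SE), adjusted p = 0.00970), and its log2 fold change in persister against parental cells was -0.43 ± 0.34 (SE, adjusted p = 0.361).

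COL4A1, which shares the promoter region with COL4A2, had 525, 459.9, 460.5, 574 and 467 CPM in the withdrawn libraries, 218, 338, 638, 513 and 169 CPM in the persister libraries and 471 CPM in the parental library. Its persister libraries spanned all other values, with library 3 the highest of the 11 and libraries 1, 2 and 5 the lowest, and its log2 fold changes of 0.41 ± 0.31 in withdrawn against persister cells and -0.33 ± 0.53 in persister against parental cells (SE) had adjusted p of 0.297 and 0.661. Persister libraries 5 and 1, with the least COL4A1, also had the least of the proliferation marker MKI67, a gene picked after its values were seen, whereas persister library 2 had the most among persister libraries: 599, 553, 661, 685 and 655 CPM in withdrawn libraries, 154, 707, 496, 518 and 45.4 CPM in persister libraries and 865 CPM in the parental library. Without persister libraries 1 and 5 the log2 fold change of COL4A1 in persister against parental cells was 0.08. The part of proliferation in the collagen values was not tested.

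In the pair on the X chromosome, COL4A5 changed and COL4A6 did not pass a test. COL4A5, a chain of the basement membranes of kidney and skin, had 7.62, 8.23, 7.76, 7.55 and 11.1 CPM in the withdrawn libraries, 17.1, 15.3, 20.5, 19.5 and 25.5 CPM in the persister libraries and 6.38 CPM in the parental library. Every persister library was above every withdrawn library, and these were above the parental library. COL4A5 was 3.07-fold higher in persister than in parental cells (log2 fold change 1.62 ± 0.31 (SE), adjusted p = 0.00259) and 2.32-fold lower in withdrawn than in persister cells (log2 fold change -1.21 ± 0.16 (SE), adjusted p = 6.75e-05). COL4A6, its neighbour, ranged from 0.234 to 0.753 CPM in withdrawn and from 0.109 to 1.42 CPM in persister libraries, with 0.520 CPM in the parental library, and did not pass either test (adjusted p = 0.555 and 0.932). In the pair on chromosome 2, COL4A4 ranged from 0.341 to 0.798 CPM in withdrawn and from 0.0609 to 0.146 CPM in persister libraries, with 0.872 CPM in the parental library. COL4A4 was 8.25-fold lower in persister than in parental cells (adjusted p = 0.000928) and 5.20-fold higher in withdrawn than in persister cells (adjusted p = 0.000167). Its partner COL4A3 stayed between 0.0154 and 0.148 CPM in all libraries.

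**Figure D2:**
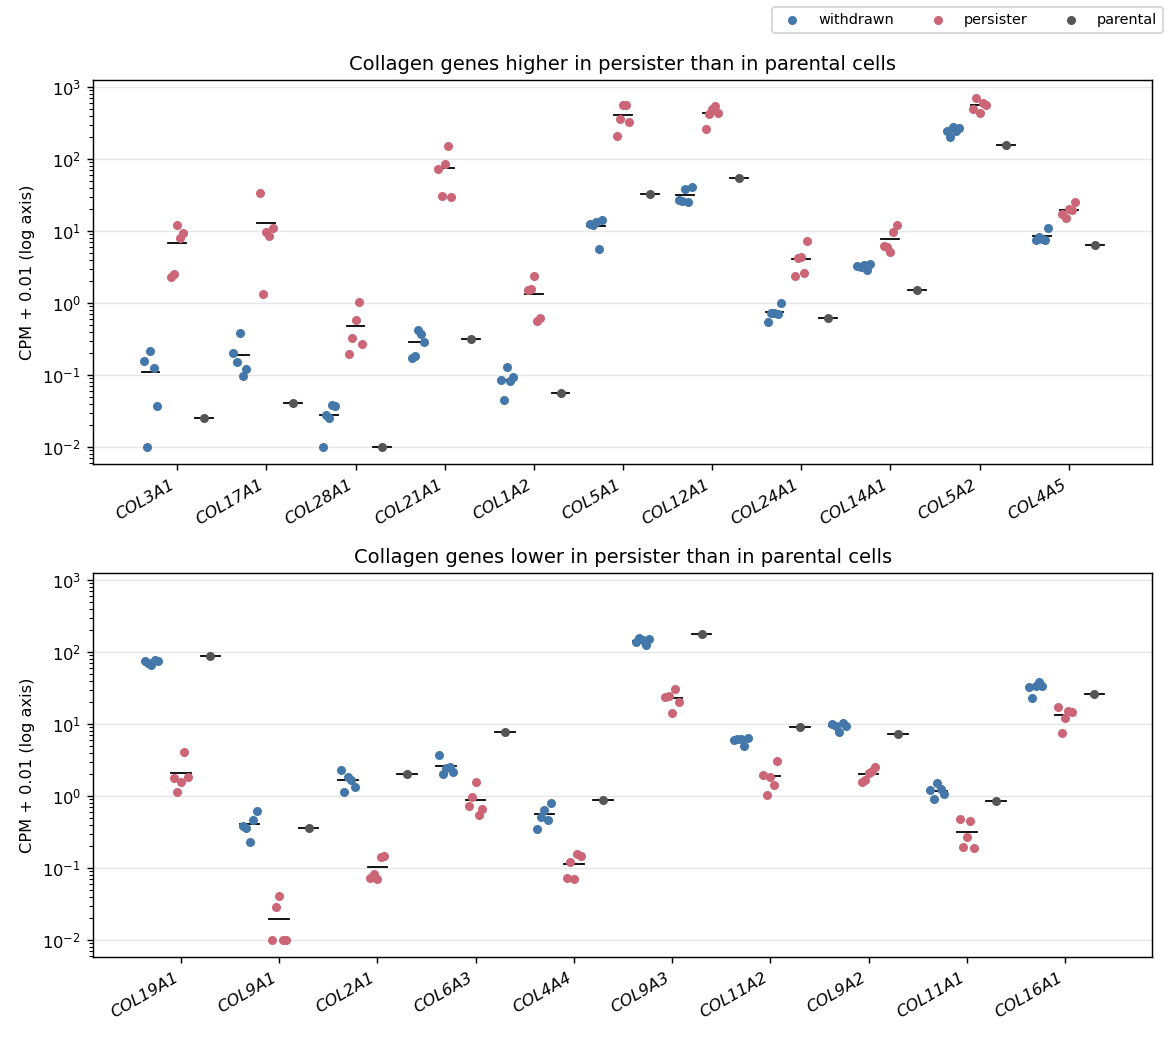
CPM (log axis, 0.01 added) of the 11 collagen genes that were higher and the 10 that were lower in persister than in parental cells, by gene. Points are single libraries of withdrawn, persister and parental cells and bars are group means. In the upper panel the persister points lie above both other groups for each gene, from COL3A1 to COL4A5, and in the lower panel they lie below them. The genes were picked by their call in persister against parental cells, which favours such a separation and makes it no further result. How often it occurs among all genes was not counted.

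Of the FACIT collagens, 9 of 10 were tested. In persister against parental cells 3 (33.3%) rose and 5 (55.6%) fell, against 16.1% and 15.1% of all genes. In withdrawn against persister cells 5 (55.6%) rose and 3 (33.3%) fell, against 24.5% and 28.0% of all genes. COL12A1, a FACIT collagen of tendon and skin that decorates type I fibrils, had 26.7, 26.3, 38.8, 25.2 and 40.6 CPM in the withdrawn libraries, 266, 424, 496, 549 and 433 CPM in the persister libraries and 53.8 CPM in the parental library. The persister libraries stood above all others and every withdrawn library was below the parental one. COL12A1 was 8.05-fold higher in persister than in parental cells (log2 fold change 3.01 ± 0.44 (SE), adjusted p = 0.000528) and 13.8-fold lower in withdrawn than in persister cells (log2 fold change -3.78 ± 0.22 (SE), adjusted p = 2.33e-07). COL14A1, a close relative on the same fibrils, had 3.29, 3.17, 3.38, 2.89 and 3.47 CPM in the withdrawn libraries, 6.19, 6.03, 5.16, 9.56 and 12.3 CPM in the persister libraries and 1.53 CPM in the parental library. Persister libraries were again the highest, and here all withdrawn libraries were above the parental one. COL14A1 was 5.13-fold higher in persister than in parental cells (log2 fold change 2.36 ± 0.47 (SE), adjusted p = 0.00340) and 2.42-fold lower in withdrawn than in persister cells (adjusted p = 0.000654).

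COL21A1, a FACIT collagen of vessel walls, had one of the widest changes of all collagen genes. It had 0.163, 0.175, 0.415, 0.356 and 0.275 CPM in the withdrawn libraries, 72.5, 31.1, 84.6, 153 and 29.9 CPM in the persister libraries and 0.306 CPM in the parental library. No persister library was below 29.9 CPM and no other library was above 0.415 CPM. COL21A1 was 241-fold higher in persister than in parental cells (log2 fold change 7.91 ± 1.27 (SE), adjusted p = 0.00113), where the parental library had 20 counts, and 264-fold lower in withdrawn than in persister cells (log2 fold change -8.04 ± 0.59 (SE), adjusted p = 1.73e-06).

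Type IX collagen, which coats the type II fibrils of cartilage, was lower in persister than in parental cells in each of its 3 chains. COL9A3 had 139.6, 158, 147, 124 and 154 CPM in the withdrawn libraries, 23.6, 24.7, 14.2, 31.2 and 20.3 CPM in the persister libraries and 178 CPM in the parental library. The persister values were far below the others, and the parental library was the highest. COL9A3 was 7.81-fold lower in persister than in parental cells (log2 fold change -2.96 ± 0.25 (SE), adjusted p = 1.20e-05) and 6.34-fold higher in withdrawn than in persister cells (log2 fold change 2.66 ± 0.18 (SE), adjusted p = 5.36e-07). COL9A2 had 10.0, 9.37, 7.70, 10.3 and 9.50 CPM in the withdrawn libraries, 1.58, 1.64, 2.05, 2.20 and 2.54 CPM in the persister libraries and 7.27 CPM in the parental library. Again the persister libraries were the lowest, while each withdrawn library was above the parental one. COL9A2 was 3.62-fold lower in persister than in parental cells (log2 fold change -1.85 ± 0.24 (SE), adjusted p = 0.000230) and 4.67-fold higher in withdrawn than in persister cells (log2 fold change 2.22 ± 0.16 (SE), adjusted p = 9.31e-07). COL9A1, the remaining chain, had 3 counts over the persister libraries, against 137 counts over the withdrawn libraries and 23 in the parental library. The ratio of withdrawn to persister cells was 46.4 (95% counting interval 15.6 to 228, adjusted p = 5.60e-05) and that of persister to parental cells 0.0251 (0.00482 to 0.0829, adjusted p = 0.00143). Without persister library 3 the fitted log2 fold changes of COL9A1 were 6.19, against 5.23 with all libraries, in withdrawn against persister cells and -5.99, against -5.03, in persister against parental cells. Without persister libraries 1 and 5 they were 4.58 and -4.38.

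COL19A1, a FACIT collagen of basement membrane zones, had 74.3, 69.7, 66.6, 78.1 and 75.1 CPM in the withdrawn libraries, 1.75, 1.14, 1.55, 4.05 and 1.80 CPM in the persister libraries and 89.3 CPM in the parental library. All persister libraries were far below the others, with library 4 the highest of the 5, and the parental library was the highest of all. COL19A1 was 42.9-fold lower in persister than in parental cells (log2 fold change -5.42 ± 0.38 (SE), adjusted p = 4.94e-06) and 35.0-fold higher in withdrawn than in persister cells (log2 fold change 5.13 ± 0.31 (SE), adjusted p = 4.00e-07). COL16A1, a FACIT collagen of skin and smooth muscle, had 33.1, 22.7, 34.0, 38.0 and 33.9 CPM in the withdrawn libraries, 17.4, 7.41, 12.1, 15.02 and 14.7 CPM in the persister libraries and 26.1 CPM in the parental library. Persister values were the lowest, and the parental library lay within the withdrawn range. COL16A1 was 2.42-fold higher in withdrawn than in persister cells (log2 fold change 1.28 ± 0.21 (SE), adjusted p = 0.000360) and 1.96-fold lower in persister than in parental cells (adjusted p = 0.0457). The second of these calls ended without persister library 3, without withdrawn libraries 1, 3, 4 or 5, without a low-count filter, with upper quartile scaling and in the 6 libraries alone, with adjusted p up to 0.134. COL22A1, known from the junction of muscle and tendon, stayed at or below 0.267 CPM in all libraries.

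The promoter windows of COL12A1 (chr6:75206004-75206303, minus strand) and COL9A2 (chr1:40317237-40317536, minus strand), FACIT genes that moved in opposite directions, are shown with motif matches in capitals (RefSeq, GRCh38.p14).
COL12A1: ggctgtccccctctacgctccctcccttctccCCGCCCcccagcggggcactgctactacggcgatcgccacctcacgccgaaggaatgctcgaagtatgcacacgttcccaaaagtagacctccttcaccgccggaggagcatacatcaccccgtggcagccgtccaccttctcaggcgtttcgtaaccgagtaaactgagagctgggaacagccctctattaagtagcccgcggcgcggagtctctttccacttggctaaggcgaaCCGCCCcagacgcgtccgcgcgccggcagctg
COL9A2: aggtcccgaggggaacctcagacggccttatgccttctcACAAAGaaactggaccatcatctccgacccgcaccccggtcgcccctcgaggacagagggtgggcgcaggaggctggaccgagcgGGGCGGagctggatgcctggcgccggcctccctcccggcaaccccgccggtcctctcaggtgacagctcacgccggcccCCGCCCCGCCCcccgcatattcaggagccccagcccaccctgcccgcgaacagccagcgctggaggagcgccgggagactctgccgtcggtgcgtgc

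Both strands were searched for the GC box GGGCGG, the CCAAT box, the TATA box TATAAA, the AP-1 site TGANTCA and the SOX core ACAANG, and overlapping matches were allowed. COL12A1 had 2 GC boxes, and COL9A2 had 3 GC boxes and 1 SOX core. RefSeq windows matched 32 of the 44 collagen genes, with 44 windows. The GC box was in 54.5% of these, against 45.0% of the 35116 windows of all genes, the CCAAT box in 31.8% against 34.6%, the TATA box in 18.2% against 11.5%, the AP-1 site in 2.27% against 7.71% and the SOX core in 29.5% against 35.5%. Among windows of collagen genes that rose in persister cells, the GC box was in 45.5%, the CCAAT box in 27.3% and the SOX core in 36.4% of 11, and among those of genes that fell, in 41.7%, 33.3% and 33.3% of 12. The TATA box was in 9.09% of the 11 and 0% of the 12, and the AP-1 site in 0% of both. These windows came from only 7 of the genes that rose and 8 of those that fell. Some genes, among them COL5A1, COL21A1 and COL11A2, had more than 1 window, so the percentages are not shares of genes. A match is a stretch of letters and not a known binding site.

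Among the beaded filament collagens, types VI and XXVIII, 5 of 6 genes were tested. In persister against parental cells COL28A1 rose and COL6A3 fell, 1 gene (20%) in each direction, against 16.1% and 15.1% of all genes. Between withdrawn and persister cells 1 (20%) rose and 2 (40%) fell, against 24.5% and 28.0% of all genes. COL6A1, one of the chains that build every type VI filament, had 125, 119, 140.3, 117 and 119 CPM in the withdrawn libraries, 182, 199, 198, 128 and 164 CPM in the persister libraries and 126 CPM in the parental library. The persister libraries were all above the parental library and, apart from library 4, above the withdrawn range. COL6A1 was 1.40-fold lower in withdrawn than in persister cells (log2 fold change -0.49 ± 0.12 (SE), adjusted p = 0.00458), and its log2 fold change of 0.47 ± 0.21 (SE) in persister against parental cells had an adjusted p of 0.111. In that second comparison COL6A1 was called higher with quality weights by group and without persister library 4. COL6A3, the largest chain of the common type VI filament, had 3.66, 2.01, 2.48, 2.55 and 2.16 CPM in the withdrawn libraries, 0.707, 0.959, 1.57, 0.535 and 0.642 CPM in the persister libraries and 7.63 CPM in the parental library. The groups did not overlap, with persister libraries lowest and the parental library highest. COL6A3 was 8.67-fold lower in persister than in parental cells (log2 fold change -3.12 ± 0.42 (SE), adjusted p = 0.000312) and 2.92-fold higher in withdrawn than in persister cells (log2 fold change 1.55 ± 0.30 (SE), adjusted p = 0.00107).

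COL6A2, the partner of COL6A1, averaged 88.3 ± 5.24 CPM in withdrawn and 108 ± 37.2 CPM in persister cells (SD, n = 5 each), against 75.9 CPM in the parental library. It did not pass the main test in any comparison. Without persister library 4 it was lower in withdrawn than in persister cells (adjusted p = 0.0183 in edgeR). COL28A1 had 169 counts over the persister libraries and none in the parental library, a level at least 10.8-fold higher in persister cells against a floor of 3 counts (adjusted p = 0.0107, and 0.0522 in the 6 libraries alone). It was 24.0-fold lower in withdrawn than in persister cells, with 6 counts over the withdrawn libraries (adjusted p = 0.000143). COL6A6 stayed at or below 0.191 CPM in all libraries.

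Of the transmembrane collagens, 3 of 4 were tested. COL17A1, a part of the hemidesmosomes that hold basal keratinocytes to the basement membrane, had 0.193, 0.140, 0.371, 0.0855 and 0.110 CPM in the withdrawn libraries, 33.4, 1.33, 9.59, 8.50 and 10.9 CPM in the persister libraries and 0.0306 CPM in the parental library. Persister library 1 was the highest, persister library 2 was 25.2-fold below it, and all withdrawn and parental values were lower than these. With 4373 counts over the persister libraries and 2 in the parental library the ratio was 419.9 (counting interval 116 to 3469, adjusted p = 0.0118), and COL17A1 was 70.3-fold lower in withdrawn than in persister cells (log2 fold change -6.13 ± 0.82 (SE), adjusted p = 0.000110). The call against parental cells ended with limma-voom and in the 6 libraries alone (adjusted p up to 0.226), and without persister library 1 the log2 fold changes were 7.87, against 8.62 with all libraries, in persister against parental cells and -5.39, against -6.13, in withdrawn against persister cells. Of 5 keratinocyte markers 4 were tested. KRT10 and TP63 rose and KRT14 fell in persister against parental cells, and KRT14 rose while KRT5, KRT10 and TP63 fell in withdrawn against persister cells. Their summed level was 35.1 to 39.2 CPM in withdrawn, 47.8 to 59.7 CPM in persister and 40.3 CPM in parental libraries, most of it KRT10, which averaged 35.9 CPM in withdrawn, 54.5 CPM in persister and 34.9 CPM in parental cells. KRT5 averaged 0.135 CPM and TP63 0.191 CPM in persister cells, and KRT1 was at 0 in all libraries. Their part in the COL17A1 result was not tested.

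COL13A1, a transmembrane collagen of cell contacts, had 7.44, 7.41, 11.3, 7.24 and 7.35 CPM in the withdrawn libraries, 1.94, 4.85, 7.20, 4.03 and 0.997 CPM in the persister libraries and 3.46 CPM in the parental library. All withdrawn libraries were above all persister and parental libraries. COL13A1 was 2.14-fold higher in withdrawn than in persister cells (log2 fold change 1.10 ± 0.43 (SE), adjusted p = 0.0491), a call close to the threshold that ended in 12 alternatives, among them the removal of persister library 1, 2 or 4 or of any withdrawn library, with adjusted p up to 0.115. COL25A1 stayed at or below 0.356 CPM in all libraries.

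The multiplexins XV and XVIII lie in basement membrane zones. COL15A1 had 11.5, 5.46, 9.34, 11.0 and 9.70 CPM in the withdrawn libraries, 0.814, 3.12, 1.40, 2.79 and 2.06 CPM in the persister libraries and 4.80 CPM in the parental library. The 3 groups did not overlap, with withdrawn libraries highest and persister libraries lowest. COL15A1 was 4.61-fold higher in withdrawn than in persister cells (log2 fold change 2.21 ± 0.34 (SE), adjusted p = 0.000232), and its log2 fold change of -1.24 ± 0.52 (SE) in persister against parental cells had an adjusted p of 0.0913, which was 0.0448 without persister library 2. COL18A1, from which the fragment endostatin is cut, averaged 25.5 ± 1.40 CPM in withdrawn and 27.5 ± 6.06 CPM in persister cells (SD, n = 5 each), against 27.2 CPM in the parental library. It did not pass any test, and 16.43% of its exon bases lie in SLC19A1 on the opposite strand.

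The anchoring fibril gene COL7A1 and the short-chain genes COL8A1 and COL8A2, known from skin and from the cornea and vessel walls, did not pass the test in any comparison. COL8A1 ran from 25.4 to 48.8 CPM in withdrawn and from 24.1 to 158 CPM in persister libraries, against 22.5 CPM in the parental library. COL7A1 ran from 4.15 to 7.40 CPM in withdrawn and from 3.25 to 19.4 CPM in persister libraries, against 6.03 CPM in the parental library. COL8A2 stayed between 0.812 and 2.46 CPM. With DESeq2, COL7A1 and COL8A1 were called lower and COL8A2 higher in withdrawn than in persister cells. In edgeR the same calls were reached for COL7A1 without persister library 2, for COL8A1 without persister library 1 or 2 and for COL8A2 without persister library 1. The genes with too few counts for a test were COL6A5, COL10A1, COL20A1, COL23A1 and COL26A1, none of which averaged above 0.0783 CPM in a group.

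Set side by side per length over all exons, the leading collagen gene differed between the groups. Levels per length are CPM per kilobase over all exons of a gene and can be compared between genes. In persister cells COL5A2 was the highest at 75.0 ± 14.3 CPM per kilobase (SD, n = 5), followed by COL5A1 at 36.4 ± 13.9, COL12A1 at 34.7 ± 8.55 and COL6A1 at 32.6 ± 5.52, which overlap one another in their spread. In withdrawn cells COL4A2 was the highest at 49.2 ± 2.72, ahead of COL4A1 at 33.7 ± 3.43 and COL5A2 at 33.4 ± 4.03, which did not differ beyond their spread. In the parental library COL4A2 stood at 39.4, COL9A3 at 36.8 and COL4A1 at 32.0 CPM per kilobase. The order depends on the length used: COL4A2 has 19293 exon bases in all but 6494 in its principal transcript. With principal transcripts, a choice made after seeing the data, COL4A2 had the highest mean in persister cells too. It was 87.1 ± 31.3 CPM per kilobase against 78.9 ± 15.1 for COL5A2 (SD, n = 5), and their spreads overlapped.

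**Figure D3:**
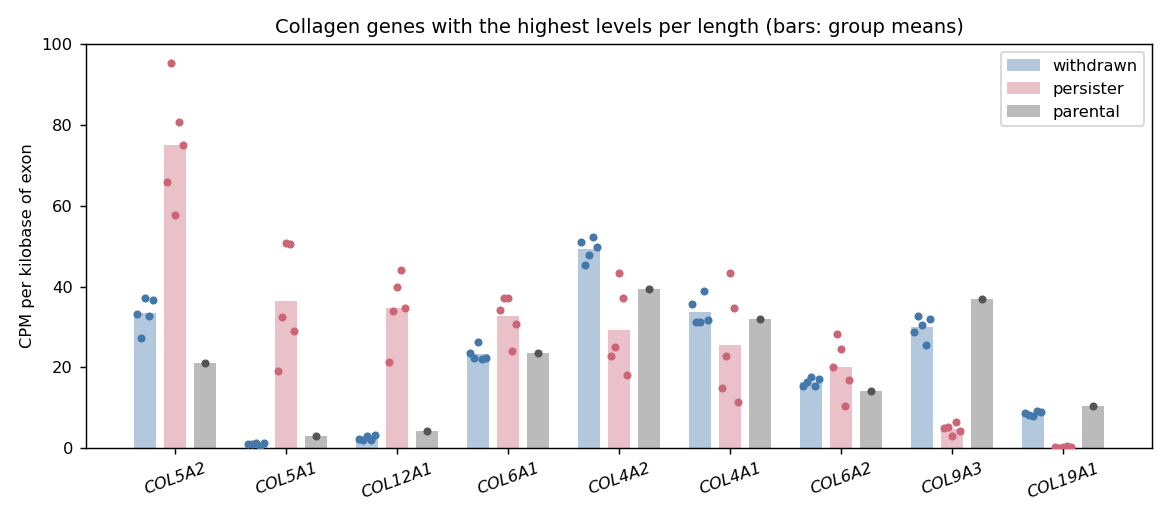
CPM per kilobase of exon (y axis) of the collagen genes with the highest levels per length. Bars are means of 5 withdrawn and 5 persister libraries and the value of the 1 parental library, and points are single libraries. COL5A1 and COL12A1 averaged 1.04 and 2.52 in withdrawn cells, 36.4 and 34.7 in persister cells, and 2.92 and 4.31 in parental cells, while COL9A3 averaged 29.9 in withdrawn and 4.71 in persister cells, with 36.8 in parental cells.

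All collagen genes together made up 0.217% to 0.246% of scaled counts in withdrawn, 0.220% to 0.368% in persister and 0.212% in parental libraries, with the highest values in persister libraries 3 and 4 and persister library 1 within the withdrawn range. Within that total COL4A1 and COL4A2 took 58.8% to 64.2% in withdrawn libraries and 20.8% to 40.1% in persister libraries, against 58.2% in the parental library. COL5A1 and COL5A2 took 9.90% to 12.4% in withdrawn and 27.1% to 37.3% in persister libraries, against 8.94% in the parental library. COL12A1 took 1.02% to 1.70% in withdrawn and 12.1% to 17.4% in persister libraries, against 2.54% in the parental library. These shares are descriptions of the members named above and were not tested.

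Chains that assemble into one molecule did not keep a fixed ratio in each case. The ratio of COL5A2 to COL5A1, per length, was 30.2, 24.7, 31.5, 64.1 and 28.5 in withdrawn libraries, 3.47, 2.94, 1.14, 1.60 and 2.58 in persister libraries and 7.19 in the parental library. The 3 groups were apart, with the ratios closest to 1 in persister libraries. The size of all these ratios depends on the length used, here all exons of each gene. The ratio of COL6A3 to COL6A1 was 0.00460 to 0.00795 in withdrawn libraries, 0.00105 to 0.00215 in persister libraries and 0.0165 in the parental library, also without overlap. The ratio of COL1A1 to COL1A2 was 16.1, 48.3, 16.2, 12.5 and 24.0 in withdrawn libraries, 0.754, 1.18, 2.90, 12.7 and 8.62 in persister libraries and 32.2 in the parental library. The ratio rests on few COL1A2 counts outside persister cells: 5, 2, 8, 5 and 6 in withdrawn libraries 1 to 5, and 3 in the parental library. Persister libraries 1, 2 and 3 had the lowest values, and persister library 4 lay just inside the withdrawn range.

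For other partners the ratios of withdrawn and persister libraries overlapped. COL4A2 to COL4A1 was 1.34 to 1.57 in withdrawn libraries, 1.00 to 1.59 in persister libraries and 1.23 in the parental library. COL6A2 to COL6A1 was 0.658 to 0.776 in withdrawn libraries, 0.435 to 0.759 in persister libraries and 0.600 in the parental library. COL9A2 to COL9A3 was 0.0601 to 0.0949 in withdrawn libraries, 0.0762 to 0.167 in persister libraries and 0.0468 in the parental library, and COL11A2 to COL11A1 was 5.38 to 9.13 in withdrawn libraries, 4.38 to 23.4 in persister libraries and 14.3 in the parental library. COL8A2 to COL8A1 was 0.0729 to 0.163 in withdrawn libraries, 0.0131 to 0.105 in persister libraries and 0.135 in the parental library.

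**Figure D4:**
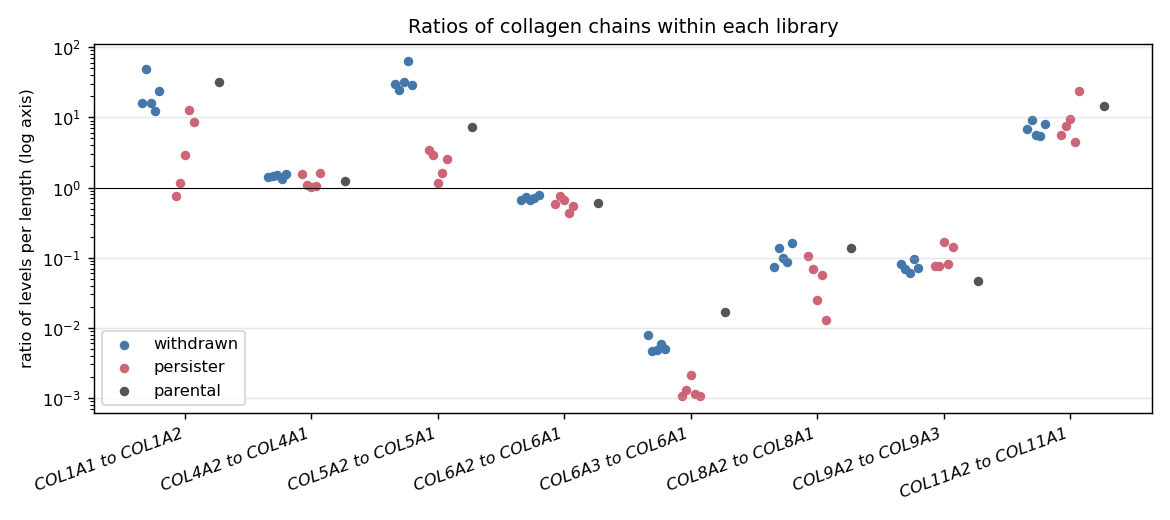
Ratio of levels per length (log axis) of collagen chains that assemble together, by pair. Points are single libraries of withdrawn, persister and parental cells, and the line marks a ratio of 1. COL5A2 to COL5A1 runs from 24.7 to 64.1 in withdrawn and from 1.14 to 3.47 in persister libraries, with 7.19 in the parental library, whereas COL4A2 to COL4A1 runs from 1.34 to 1.57 in withdrawn and from 1.00 to 1.59 in persister libraries, with 1.23 in the parental library.

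The persister libraries differed more among themselves than the withdrawn libraries did. Of the collagen genes with a persister mean of at least 1 CPM and counts in every persister and withdrawn library, the highest value divided by the lowest was wider in persister than in withdrawn libraries for 27 of 27, with a median of 2.71 in persister and 1.47 in withdrawn libraries. Of all 14520 genes tested that met the same conditions, 13386 (92.2%) were wider in persister libraries, with a median of 1.63 in persister and 1.17 in withdrawn libraries. COL5A3 spanned 1.37-fold among withdrawn and 46.9-fold among persister libraries. COL17A1 spanned 4.34-fold among withdrawn and 25.2-fold among persister libraries, and COL13A1 1.56-fold among withdrawn and 7.22-fold among persister libraries. COL6A1, COL9A2 and COL5A2 were among the steadiest, with 1.55-fold, 1.61-fold and 1.65-fold spans in persister libraries. No single persister library was the highest throughout: library 1 led COL17A1 and COL16A1, library 2 COL5A2, library 3 COL1A2 and COL4A1, library 4 COL21A1 and COL12A1, and library 5 COL14A1 and COL24A1.

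Between withdrawn and parental cells none of the 39 collagen genes passed edgeR's test, where 0.312% of all genes were higher and 0.118% lower. At an unadjusted p under 0.05, COL5A2 and COL14A1 were higher and COL5A1, COL6A3 and COL12A1 lower, or 2 and 3 genes, where 9.17% and 6.07% of all genes reached that level. With limma-voom the counts were also 0 and 0, with 0.241% and 0.219% of all genes called, while DESeq2 called COL6A3 lower and none higher, against 2.05% and 4.12% of all genes. Other fits gave other counts. Voom with quality weights by group, which weighted the parental library with the withdrawn libraries, called 3 higher and 5 lower, against 12.8% and 12.1% of all genes. The 6 withdrawn and parental libraries alone gave 4 higher and 5 lower, against 16.1% and 14.4%. COL5A2, COL13A1 and COL14A1 were higher and COL5A3, COL6A3 and COL11A2 lower in both. COL6A3 had a log2 fold change of -1.57 ± 0.44 (SE, adjusted p = 0.130 in edgeR), and COL5A1 one of -1.50 ± 0.47 (SE, adjusted p = 0.169). A gene that missed the threshold here is not thereby shown to have returned to its parental level.

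The genes that modify, process, bind and break down collagens were examined as 5 lists. Collagen modification and folding takes place in the endoplasmic reticulum, where prolines and lysines are hydroxylated before the helix closes. Of its 18 genes 10 (55.6%) rose and 0 fell in persister against parental cells, where 16.1% of all genes rose and 15.1% fell. In withdrawn against persister cells 1 (5.56%) rose and 8 (44.4%) fell, where 24.5% of all genes rose and 28.0% fell. The median log2 fold change of its genes was 0.72 in persister against parental cells, with 0.09 over all genes, and -0.27 in withdrawn against persister cells, with -0.03 over all genes. P4HA3, a prolyl 4-hydroxylase subunit, averaged 0.936 ± 0.314 CPM in withdrawn, 7.60 ± 2.60 CPM in persister and 0.306 CPM in parental cells (SD, n = 5 for the first 2). It was 24.7-fold higher in persister than in parental cells (adjusted p = 0.000928). P3H2, a prolyl 3-hydroxylase that acts on type IV collagen, averaged 20.5 ± 5.81 CPM in withdrawn, 161 ± 22.8 CPM in persister and 9.64 CPM in parental cells, and was 16.7-fold higher (adjusted p = 7.06e-05). FKBP10, a folding enzyme of type I collagen, averaged 382 ± 9.58 CPM in withdrawn, 668 ± 97.1 CPM in persister and 266 CPM in parental cells, and was 2.51-fold higher (adjusted p = 0.000516). All 3 fell in withdrawn against persister cells.

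Of the 13 genes of export and propeptide processing, 5 (38.5%) rose and 2 (15.4%) fell in persister against parental cells, against 16.1% and 15.1% of all genes, and 3 (23.1%) rose and 7 (53.8%) fell in withdrawn against persister cells, against 24.5% and 28.0%. Their median log2 fold changes in the same comparisons were 0.62 and -0.36. TLL1, a procollagen C-proteinase, averaged 2.00 ± 2.70 CPM in withdrawn, 107 ± 51.0 CPM in persister and 0.245 CPM in parental cells, and was 433-fold higher in persister than in parental cells (adjusted p = 0.0173, and up to 0.0694 with limma-voom or no low-count filter). BMP1, the main enzyme of that kind, averaged 25.8 ± 0.946 CPM in withdrawn, 76.6 ± 14.3 CPM in persister and 21.2 CPM in parental cells, and was 3.61-fold higher (adjusted p = 0.000234). PCOLCE2, an enhancer of these enzymes, was 2.32-fold higher, while ADAMTS3, which trims procollagen at the other end, was 2.64-fold lower and SEC31A, a coat protein of export vesicles, 1.52-fold lower (adjusted p = 0.00366, 0.0129 and 0.0111). The last 3 calls ended in the 6 libraries alone, with adjusted p up to 0.0934.

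In the crosslinking and fibril organisation list, 4 of 11 tested genes (36.4%) rose and 3 (27.3%) fell in persister against parental cells, against 16.1% and 15.1% of all genes, and 3 (27.3%) rose and 6 (54.5%) fell in withdrawn against persister cells, against 24.5% and 28.0%. Their median log2 fold changes in the same comparisons were 1.30 and -0.44. LUM and DCN, proteoglycans that space collagen fibrils, were 79.7-fold and 23.5-fold higher in persister than in parental cells (adjusted p = 0.00407 and 0.0106), the second not with limma-voom or in the 6 libraries alone (up to 0.0936). The lysyl oxidases, which crosslink collagen, split: LOXL2 averaged 112 ± 8.77 CPM in withdrawn, 319.6 ± 54.3 CPM in persister and 90.1 CPM in parental cells, and was 3.55-fold higher in persister than in parental cells (adjusted p = 0.000230). LOXL4 averaged 1280.1 ± 143 CPM in withdrawn, 107 ± 25.2 CPM in persister and 694 CPM in parental cells, and was 6.48-fold lower (adjusted p = 1.13e-05). LOXL3 was 1.90-fold lower (adjusted p = 0.0403), a call that ended in 11 alternatives, with adjusted p up to 0.153, among them the removal of any of persister libraries 1, 3, 4 and 5 or of withdrawn libraries 1, 3, 4 and 5. TNXB, a matrix protein that binds fibrils, was 6.04-fold lower (adjusted p = 0.000873).

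Of 10 tested collagen receptors, 4 (40%) rose and 3 (30%) fell in persister against parental cells, against 16.1% and 15.1% of all genes, and 3 (30%) rose and 6 (60%) fell in withdrawn against persister cells, against 24.5% and 28.0%. Their median log2 fold changes in the same comparisons were 0.76 and -0.65. The collagen-binding integrins divided by subunit. ITGA11, a receptor for fibrillar collagens, averaged 3.73 ± 0.827 CPM in withdrawn, 28.9 ± 19.3 CPM in persister and 1.22 CPM in parental cells, and was 23.6-fold higher in persister than in parental cells (adjusted p = 0.0139, and up to 0.0975 with limma-voom, no low-count filter or the 6 libraries alone). ITGA1, which prefers type IV collagen, averaged 327 ± 23.0 CPM in withdrawn, 26.0 ± 10.9 CPM in persister and 191 CPM in parental cells, and was 7.36-fold lower (adjusted p = 0.000367). ITGA10, known from cartilage, averaged 26.9 ± 6.44 CPM in withdrawn, 2.19 ± 0.934 CPM in persister and 20.3 CPM in parental cells, and was 9.28-fold lower (adjusted p = 0.000385). ITGA2 was 2.42-fold lower, and the receptor kinases DDR1 and DDR2 were 1.93-fold and 1.84-fold higher (adjusted p = 0.0183, 0.0164 and 0.00916), calls that ended in the 6 libraries alone, with adjusted p up to 0.108.

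Of 11 genes of collagen breakdown and uptake, 7 (63.6%) rose and 1 (9.09%) fell in persister against parental cells, against 16.1% and 15.1% of all genes, and 2 (18.2%) rose and 7 (63.6%) fell in withdrawn against persister cells, against 24.5% and 28.0%. Their median log2 fold changes in the same comparisons were 1.84 and -1.08. Their summed level was 745 to 850.1 CPM in withdrawn, 1595 to 3019.9 CPM in persister and 692 CPM in parental libraries. MMP13, a collagenase, averaged 0.0438 ± 0.0448 CPM in withdrawn, 16.1 ± 17.3 CPM in persister and 0.0918 CPM in parental cells. It was 172-fold higher in persister than in parental cells (log2 fold change 7.43 ± 2.07 (SE), adjusted p = 0.0201), with a log2 fold change of 6.57 without persister library 3 and an adjusted p of up to 0.208 with limma-voom, no low-count filter or the 6 libraries alone. MMP1, another collagenase, averaged 2.12 ± 2.31 CPM in withdrawn, 34.8 ± 14.7 CPM in persister and 0.765 CPM in parental cells, and was 45.4-fold higher (adjusted p = 0.0208), though not without a low-count filter or without persister libraries 1 and 5 (adjusted p up to 0.0777). MMP16, a membrane-bound protease, was 1.74-fold lower (adjusted p = 0.0161, and 0.107 in the 6 libraries alone).

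FAP, a protease of fibroblast surfaces that trims cleaved collagen, averaged 15.4 ± 5.15 CPM in withdrawn, 27.4 ± 11.1 CPM in persister and 0.903 CPM in parental cells, and was 30.3-fold higher in persister than in parental cells (adjusted p = 0.000787). It was also the one gene of the 5 lists that edgeR called between withdrawn and parental cells, 17.1-fold higher in withdrawn cells (adjusted p = 0.0393), a call that ended with limma-voom, without a low-count filter and without any of withdrawn libraries 1, 3, 4 and 5, with adjusted p up to 0.118. Its 1.78-fold fall in withdrawn against persister cells (adjusted p = 0.0347) ended in 11 alternatives, among them the removal of persister library 1, 2 or 5 or of withdrawn library 1, 2, 3 or 5, with adjusted p up to 0.188.

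**Figure D5:**
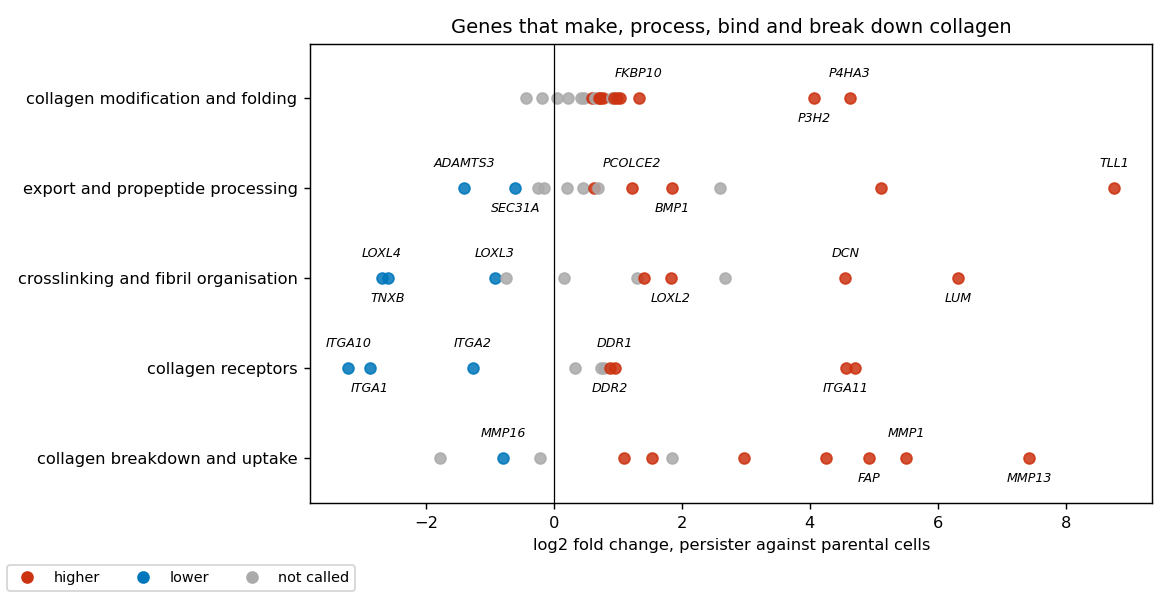
Log2 fold change in persister against parental cells (x axis) of the genes in the 5 lists that act on collagen, with 1 row for each list. Red points are higher, blue points lower and grey points not past an adjusted p of 0.05, and the labelled genes are those described in the text. MMP13 and TLL1 stand at 7.43 and 8.76, and LOXL4 and ITGA10 at -2.69 and -3.21.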

How the data were processed

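The deposited table holds 1 column of raw read counts per gene for each of the 11 libraries. RNeasy kits were used for RNA and a KAPA stranded mRNA kit for the libraries, per the labels' protocols. Per the submitters' processing notes, the authors used bcl2fastq, HISAT2, HTSeq and hg38. No source used here gives their versions or the strand setting of the counting, so reads of overlapping genes on opposite strands may not be separable.

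Counts were scaled by TMM and tested with edgeR 4.0.16 (quasi-likelihood, robust) in R 4.3.3, with 3 groups and 8 residual degrees of freedom, for the 23693 genes that passed filterByExpr (minimum count 10, minimum total 15). P-values were adjusted by Benjamini-Hochberg over all of them, with a threshold of 0.05. The SE given with a log2 fold change is its size divided by the square root of its quasi-likelihood F statistic. It is an approximation derived from the test and not a separate estimate. The steps were run on simulated counts with known changes in well-counted genes of the persister group, and the check required the right direction. That check covered neither genes with few counts nor withdrawn against parental cells. The single parental library was taken to vary as the others do. In the fit with quality weights by group it was placed in the weight group of the withdrawn libraries. Total counts of 56513920 to 82984566 per library set the precision. Where a group had at most 3 counts, the ratio of counts is given with an exact 95% interval, and against 0 counts a bound from a floor of 3 counts over the group; both cover counting error only.

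Members and lists were chosen with earlier results of these data known. Values in every library are given for members called in at least 1 comparison with a group mean of 1 CPM or more and for the 5 with the highest level per length in a group. From each other list, the called genes with the 3 largest rises and 3 largest falls in persister against parental cells and a group mean of 1 CPM or more are named. Promoter windows come from RefSeq. Alternatives were DESeq2 1.42.0, limma-voom (limma 3.58.1) with and without quality weights by group, RLE and upper quartile scaling, other low-count filters, the compared groups alone, a replicate block and each replicated library left out in turn. Leaving out persister libraries 1 and 5 together and the use of principal transcript lengths were chosen after seeing the data.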

Additional observations from a re-analysis of the deposited data

Results flagged for a closer look

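In 50 sets of 5 libraries (25 collagen genes in withdrawn and in persister cells), 5 had a library far from the other 4, and chance flags about 1 in 20 groups. Withdrawn library 4 was low for COL5A1, at 5.70 CPM against 12.3 to 14.4 CPM in the other withdrawn libraries, and for COL11A2, at 4.94 CPM against 6.03 to 6.30 CPM. Withdrawn library 5 was high for COL4A5, at 11.1 CPM against 7.55 to 8.23 CPM in the others, and withdrawn library 3 was high for COL13A1, at 11.3 CPM against 7.24 to 7.44 CPM. Persister library 4 was high for COL19A1, at 4.05 CPM against 1.14 to 1.80 CPM in the other persister libraries.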

How the results depend on the processing

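Counts of collagen genes called between persister and parental cells were 11 higher and 10 lower. They were 7 higher and 8 lower when the 6 libraries were fitted alone, and 8 higher and 11 lower with limma-voom. With 1 library left out they were 11 to 12 higher and 8 to 11 lower. Between withdrawn and persister cells they were 13 higher and 14 lower, and 12 to 14 higher and 13 to 15 lower with 1 library left out. Between withdrawn and parental cells the 0 higher and 0 lower of edgeR stayed at 0 and 0 with any 1 library left out. They became 3 higher and 5 lower with voom quality weights by group, 4 higher and 5 lower in the compared groups alone, 1 lower with DESeq2 and 1 lower without persister libraries 1 and 5. The cause was not tested. Over all genes the calls in persister against parental cells were 3819 higher and 3572 lower, and 1354 and 1215 in the compared groups alone. In withdrawn against parental cells they were 74 higher and 28 lower, and 3483 and 3110 in the compared groups alone, 3033 and 2869 with quality weights, 765 and 381 with DESeq2, 49 lower with at least 10 counts in 5 libraries and 52 lower with limma-voom. With 1 library left out they ran from 19 higher and 4 lower without withdrawn library 5 to 374 and 184 without persister library 5. They were 22 and 5, 50 and 12, 23 and 6, and 20 and 7 without withdrawn libraries 1 to 4 in turn, and 123 and 46, 252 and 109, 50 and 17, and 130 and 48 without persister libraries 1 to 4. Without persister libraries 1 and 5 they were 1241 and 845. The replicate number as a block for the 10 persister and withdrawn libraries gave 13 higher and 14 lower collagen genes, so it changed neither count. It ended the call of FAP. Deviations of same-numbered libraries from their group means correlated weakly across genes, at 0.0484 to 0.0909. In each case this was above the correlations with other numbers. The main tests were unpaired, and whether the numbers mark pairs was not tested. Members that were not called changed sign in these log2 fold changes. In persister against parental cells COL4A1 was 0.079 without persister libraries 1 and 5. COL13A1 was -0.19 with limma-voom, -0.20 with quality weights and -0.23 to 0.38 with 1 library left out. COL18A1 was -0.00037 with limma-voom, -0.052 without persister libraries 1 and 5 and -0.11 to 0.084 with 1 library left out, and -0.18 to 0.015 in withdrawn against persister cells. In withdrawn against parental cells COL1A1 was -0.010 with limma-voom and -0.011 with quality weights. With 1 library left out, COL1A1 ran from -0.059 to 0.20, COL6A1 from -0.069 to 0.0045, COL7A1 from -0.17 to 0.035, COL9A1 from -0.014 to 0.35 and COL21A1 from -0.32 to 0.0041 in that comparison. Depth limits the genes with few counts in parental cells, and the single parental library limits both comparisons with it.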
